A study of Mus musculus with 8 samples.

Results

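The kinesin-2 motor genes and the genes of the ciliary Arl GTPase cycle were followed through skin epithelium in which MOF or KANSL1 was conditionally deleted. Members were taken by gene symbol, and the 7 described were listed among the 23432 symbols of each library: Kif3a, Kif3b, Kif3c, Kifap3 and Kif17 for the motor, and Arl3 and Inpp5e for the GTPase cycle. Polyadenylated RNA was sequenced from 4 groups of 2 libraries. At E16.5, epithelial cells were enriched from back skin by sorting K14-H2BGFP+ cells, which carry a fluorescent histone under the Krt14 promoter, from controls and from MOF cKO embryos of genotype MOFfl/fl/K14Cre. At P0.5, whole epidermis freed from the dermis with dispase and lysed by floating on TRIzol was taken from controls and from Kansl1 cKO pups of genotype Kansl1fl/fl/K14Cre. In both cKO lines Cre recombinase was driven by the Krt14 promoter, so deletion was directed to Krt14-expressing epithelial cells and not to other skin cells, and the study describes mosaic deletion in a younger MOF cKO embryo that was used for single-cell sequencing and is not among these libraries. MOF, encoded by Kat8, is a histone acetyltransferase, and KANSL1 is a subunit of its NSL complex. Controls were wild-type or heterozygous littermates according to the study, and the labels do not say which genotype each control library had. The labels do not state that replicates came from separate animals. By Xist and Ddx3y, given below, the 2 libraries of each control group differed in sex and so came from different animals. The cKO libraries do not show this. The p-values measure the spread between these libraries, which may in part be technical.

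Kinesin-2 is the plus-end motor that carries intraflagellar transport trains from the base of the primary cilium to its tip. Its heterotrimeric form joins KIF3A to a second motor subunit, KIF3B or KIF3C, and to the adaptor KIFAP3, whereas KIF17 works as a homodimer that is an accessory motor in some ciliated cells. ARL3 is a small GTPase that, when bound to GTP, releases lipid-modified cargo from its carriers inside the cilium. INPP5E, a lipid-anchored phosphatase that removes the 5-phosphate of membrane phosphoinositides, is one such cargo. In skin epithelium the primary cilium is best known as the place where Hedgehog signals are read during hair follicle growth.

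All 7 genes are autosomal. In the GENCODE annotation of mm10, the build of the deposited counts, Kif3a lies on the plus strand at chr11:53567379-53601967, Kif3b at chr2:153291413-153333390 (plus), Kif3c at chr12:3365132-3406494 (plus) and Kifap3 at chr1:163779583-163917109 (plus). Kif17 lies at chr4:138250435-138301967 (plus), Arl3 at chr19:46531096-46573198 (minus) and Inpp5e at chr2:26396249-26409203 (minus). The 4 heterotrimer genes were lower together in MOF cKO, as described further on, so the 250 bases before the RefSeq start (GRCm38.p6) of each are printed 5′ to 3′ on the gene's strand, with those of Kif17, which was not called. The windows are chr11:53567119-53567368, chr2:153291166-153291415, chr12:3364882-3365131, chr1:163779333-163779582 and chr4:138262001-138262250, all on the plus strand. Capitals mark every match to GTTGCC or GTTGCT on either strand, the half-site that RFX transcription factors are known to bind in X-box motifs of ciliary genes.
Kif3a: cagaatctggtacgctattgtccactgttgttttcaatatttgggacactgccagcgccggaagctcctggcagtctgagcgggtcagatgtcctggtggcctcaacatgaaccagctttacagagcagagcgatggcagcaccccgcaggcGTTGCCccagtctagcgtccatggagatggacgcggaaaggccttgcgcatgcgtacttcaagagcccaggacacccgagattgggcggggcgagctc
Kif3b: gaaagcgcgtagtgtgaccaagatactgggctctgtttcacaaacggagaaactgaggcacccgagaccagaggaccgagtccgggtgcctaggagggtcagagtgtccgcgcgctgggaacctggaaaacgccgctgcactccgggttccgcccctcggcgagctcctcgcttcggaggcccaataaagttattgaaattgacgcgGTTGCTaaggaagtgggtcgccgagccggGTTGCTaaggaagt
Kif3c: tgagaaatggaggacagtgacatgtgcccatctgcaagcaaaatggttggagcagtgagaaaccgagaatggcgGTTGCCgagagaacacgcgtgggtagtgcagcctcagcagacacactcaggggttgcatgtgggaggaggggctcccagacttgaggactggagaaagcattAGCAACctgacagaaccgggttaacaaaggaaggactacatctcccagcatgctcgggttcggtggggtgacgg
Kifap3: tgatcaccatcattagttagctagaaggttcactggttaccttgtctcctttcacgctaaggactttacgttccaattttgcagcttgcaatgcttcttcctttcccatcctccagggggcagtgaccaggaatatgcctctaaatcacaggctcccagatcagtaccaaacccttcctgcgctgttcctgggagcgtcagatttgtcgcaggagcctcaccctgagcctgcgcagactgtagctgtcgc
Kif17: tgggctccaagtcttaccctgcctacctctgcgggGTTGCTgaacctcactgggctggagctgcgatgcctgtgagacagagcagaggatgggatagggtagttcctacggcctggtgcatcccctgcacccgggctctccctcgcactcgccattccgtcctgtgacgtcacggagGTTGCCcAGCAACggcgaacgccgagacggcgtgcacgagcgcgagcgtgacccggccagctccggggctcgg
Kif3a held 1 half-site, Kif3b and Kif3c held 2 each and Kif17 held 3, among them a GTTGCC followed after 1 base by its partner half-site on the other strand. No such letters occurred in the Kifap3 window, nor in those of Arl3 and Inpp5e. Among 32851 RefSeq promoter windows of the same length, 10.4% held GTTGCC and 12.2% held GTTGCT, and 6905 windows held either, as those of 4 of the 7 genes did. The looser X-box consensus was matched in the windows of Kif3b, Kif3c, Kif17 and Inpp5e and in 29.6% of all windows. These matches describe the sequence only.

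Counts on genes ranged from 9108709 to 27561688 per library, and the 4 P0.5 libraries were shallower than the 4 E16.5 libraries, so that a single count was worth 0.0326 to 0.115 CPM (counts scaled to a common library size and composition). Kat8, which encodes MOF, was at 14.4 and 14.7 CPM in E16.5 control and at 12.4 and 13.9 CPM in MOF cKO (log2 fold change -0.14, adjusted p = 0.554 from edgeR), and counts per gene do not separate a deleted part from the rest of a transcript. Kansl1, of which exon 3 is deleted, was at 40.7 and 48.2 CPM in P0.5 control and at 31.4 and 30.6 CPM in Kansl1 cKO (adjusted p = 0.242). Basal keratinocyte markers were present in all libraries, with summed levels of 29800 to 36800 CPM at E16.5 and 15000 to 17300 CPM at P0.5. The libraries were not matched for sex: E16.5 control replicate 1 was the only E16.5 library with high Xist, and P0.5 control replicate 2 the only P0.5 library with Ddx3y.

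Levels of different genes were compared per length, as CPM per kilobase of merged exons. In E16.5 control the order from high to low was Arl3 at 10.4 ± 0.629 (SD, n = 2), Kif3a at 8.59 ± 1.13, Kifap3 at 8.34 ± 0.201, Inpp5e at 6.21 ± 0.422, Kif3b at 5.32 ± 0.0435, Kif3c at 3.42 ± 0.117 and Kif17 at 0.270 ± 0.0207 CPM per kilobase. Kif3a and Kifap3 were the only neighbours in this order whose libraries overlapped. Kif3b, the partner of KIF3A in cilium building, was thus above Kif3c in both control libraries, and Kif17 was far below every other member. In MOF cKO the order changed: Arl3 and Inpp5e, at 9.82 ± 1.39 and 4.69 ± 0.179 CPM per kilobase (SD, n = 2), stood above Kif3a at 2.67 ± 0.346, Kif3b at 1.94 ± 0.171, Kifap3 at 1.78 ± 0.345, Kif3c at 0.860 ± 0.0835 and Kif17 at 0.680 ± 0.00305. The only neighbours that overlapped there were Kif3b and Kifap3. In P0.5 control Kif3a led at 10.1 ± 0.931 CPM per kilobase, followed by Kifap3 at 5.60 ± 0.290. Arl3 came next at 4.41 ± 0.400, and Kif3b at 3.72 ± 0.321, Inpp5e at 2.85 ± 1.30 and Kif3c at 1.68 ± 0.786 CPM per kilobase followed, each overlapping the next, and Kif17 was last at 0.0343 ± 0.0270. In P0.5 Kansl1 cKO Kif3a again led, at 8.35 ± 0.100 CPM per kilobase, above Arl3 at 5.85 ± 0.772, Kifap3 at 4.16 ± 0.382, Kif3b at 3.96 ± 0.318, Inpp5e at 2.99 ± 0.0506 and Kif3c at 2.19 ± 0.557, with an overlap only between Kifap3 and Kif3b, and Kif17 was last at 0.0210 ± 0.00312. The place of Arl3 at P0.5 depended on the length used. Per kilobase of the longest transcript, Arl3 led in Kansl1 cKO, at 13.2 against 9.47 for Kif3a. In P0.5 control it then stood above Kifap3, at 9.95 against 5.60.

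**Figure D1:**
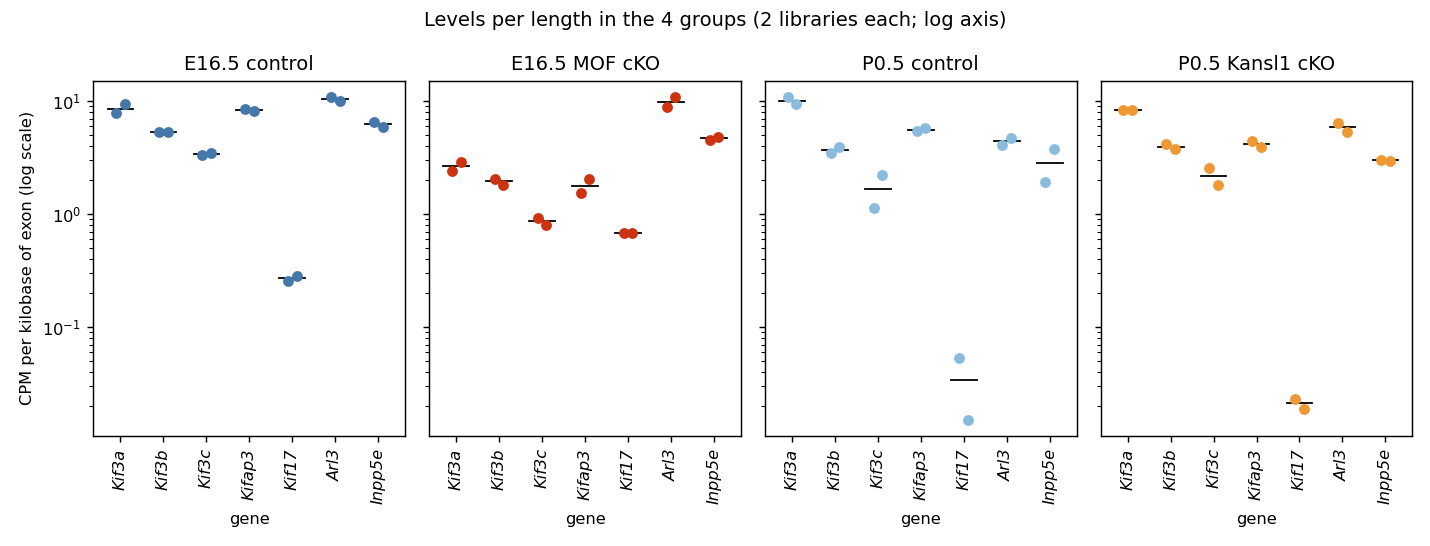
Level of each gene in CPM per kilobase of merged exons (vertical log axis) in the 4 groups, with 1 point per library and a line at the mean of 2 libraries. In E16.5 control Kif3a and Kifap3 stand above Inpp5e, and in MOF cKO they stand below it.

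All 4 subunits of heterotrimeric kinesin-2 fell in MOF cKO. Kif3a, which encodes the subunit common to both heterotrimers, was at 30.4 and 36.4 CPM in the E16.5 control libraries and at 9.44 and 11.4 CPM in the MOF cKO libraries. This was a level 3.21-fold lower, or -1.68 on the log2 scale with a standard error (SE) of 0.180, and the adjusted p was 0.000784 (edgeR's quasi-likelihood test, Benjamini-Hochberg adjustment). Kif3b, its main partner, was at 32.8 and 32.2 CPM in the controls and at 12.6 and 11.1 CPM in MOF cKO (log2 fold change -1.46, SE 0.156, adjusted p = 0.000782). For both motor subunits the MOF cKO libraries lay below both controls, with no overlap. Kif3c, the alternative partner that is best known from neurons, was at 26.9 and 28.01 CPM in the controls and at 7.38 and 6.44 CPM in MOF cKO (log2 fold change -1.99, SE 0.176, adjusted p = 0.000515). Kifap3, the adaptor that links the motor to cargo, had the largest fold change of the 4. It was at 37.1 and 35.6 CPM in the controls and at 6.68 and 8.81 CPM in MOF cKO, a level 4.68-fold lower (log2 fold change -2.23, SE 0.185, adjusted p = 0.000439). Genes counted as called when the adjusted p did not exceed 0.01 and the level differed by more than 1.5-fold. On that rule 4 of the 7 members were called lower, and these were the heterotrimer subunits. Among the 13956 genes tested 9.59% were called lower and 10.0% higher, and no member was called higher. The median over the 7 members was -1.46 on the log2 scale, against -0.02 for all genes tested. The 4 calls were kept by DESeq2 and with any of the 4 libraries left out. In bulk RNA, fewer cells that express a gene and less RNA per cell cannot be told apart.

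**Figure D2:**
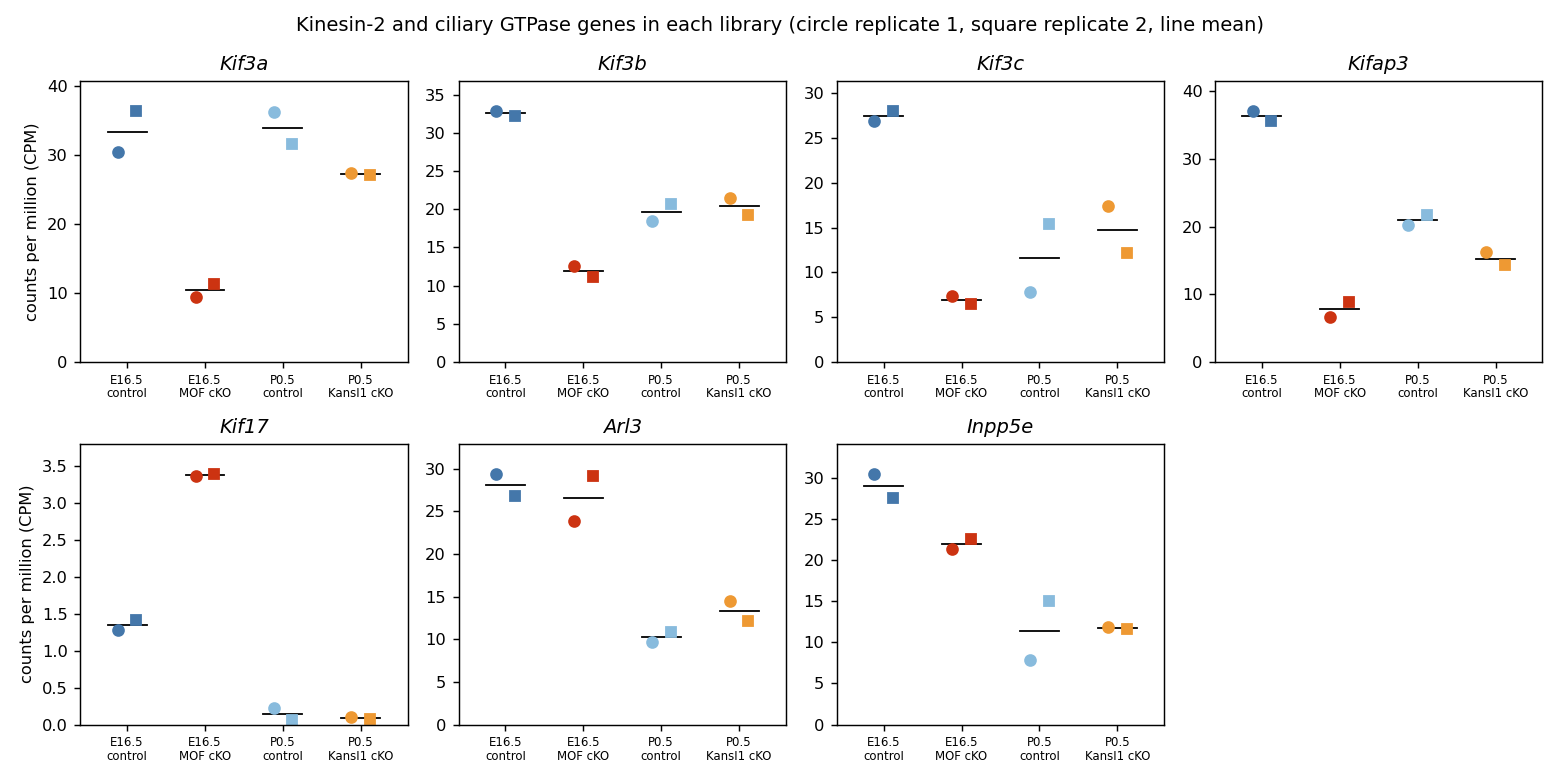
CPM of each of the 7 genes in each library, by group (circle, replicate 1; square, replicate 2; line, mean; vertical axes start at 0 and differ between panels). The MOF cKO points lie below both control points for Kif3a, Kif3b, Kif3c and Kifap3, above them for Kif17, and among them for Arl3.

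Proportions between subunits were compared within a library, where scaling cancels. The ratio of Kif3c to Kif3b per kilobase was 0.623 and 0.661 in the E16.5 controls and 0.446 and 0.440 in MOF cKO. The ratio of Kifap3 to Kif3a was 1.09 and 0.873 in the controls and 0.632 and 0.694 in MOF cKO. Both ratios were lower in both MOF cKO libraries than in both controls, whereas the ratio of Kif3b to Kif3a overlapped, at 0.688 and 0.564 in the controls and 0.850 and 0.625 in MOF cKO. An exact permutation test of 2 libraries against 2 cannot give a two-sided p below 0.333, so these ratios are given as values. The same limit holds wherever the libraries of a member do not overlap, and the share of all genes that separate in this way was not counted.

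Inpp5e was lower in both MOF cKO libraries but was not called, and Arl3 overlapped between the groups. Inpp5e was at 30.5 and 27.5 CPM in the controls and at 21.3 and 22.5 CPM in MOF cKO (log2 fold change -0.40, SE 0.145, adjusted p = 0.0623 from edgeR). Its 95% confidence interval ran from -0.74 to -0.06 and so did not reach the interval of any heterotrimer subunit, the nearest of which was that of Kif3b, from -1.82 to -1.09. Arl3 was at 29.4 and 26.8 CPM in the controls and at 23.8 and 29.2 CPM in MOF cKO (log2 fold change -0.08, 95% confidence interval -0.45 to 0.29, adjusted p = 0.709). Within a library, the ratio of Kif3a to Inpp5e per kilobase stood at 1.20 and 1.59 in the controls and at 0.532 and 0.605 in MOF cKO, and that of Kif3a to Arl3 at 0.718 and 0.943 against 0.275 and 0.270. Both ratios were lower in both MOF cKO libraries. The ratio of Inpp5e to Arl3 was 0.600 and 0.594 in the controls and 0.517 and 0.446 in MOF cKO. Inpp5e was called lower when library size alone was used for scaling, which moved the median of all genes to -0.32 on the log2 scale and the share of lower genes among all calls from 49.0% to 78.1%. Relative to that median Inpp5e stood at -0.38 and Kifap3 at -2.20.

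**Figure D3:**
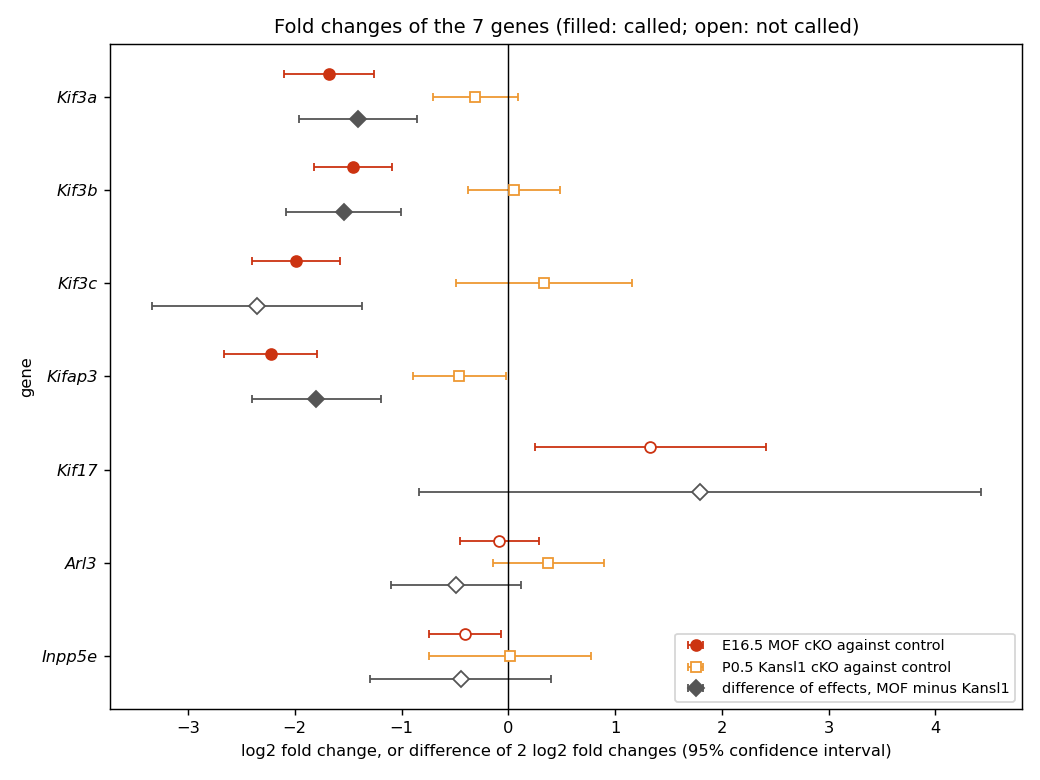
Log2 fold change of each gene in MOF cKO (circles) and Kansl1 cKO (squares) against their controls, and the difference of the 2 effects (diamonds), with 95% confidence intervals from edgeR; filled symbols were called. The circles of the 4 heterotrimer subunits lie between -2.23 and -1.46, and those of Inpp5e and Arl3 at -0.40 and -0.08.

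Kif17 was the single member with a higher value in MOF cKO, at a low level. Its counts were 39 and 39 in E16.5 control and 67 and 80 in MOF cKO, or 1.27 and 1.41 against 3.36 and 3.39 CPM. The log2 fold change was 1.33 (SE 0.460, 95% confidence interval 0.25 to 2.41), both MOF cKO libraries lay above both controls, and the gene was not called (adjusted p = 0.0555, edgeR). One of the 4 annotated Kif17 transcripts starts inside Sh2d5, a gene on the same strand whose start lies 32 bases from that of Kif17, and the genes share 74 exonic bases. The other 3 transcripts start after the end of Sh2d5. The first of these starts lies 11797 bases after the start inside Sh2d5, and the Kif17 window printed above lies at that later start. These are GENCODE models, and the deposited counts may rest on other gene models, here and for the pairs described next. Sh2d5 itself went from 22 and 34 counts in the controls to 527 and 738 counts, a 29.8-fold higher level (log2 fold change 4.90, SE 0.287, adjusted p = 0.000175). Counts per gene do not tell reads of a transcript that runs through both genes from reads of Kif17 alone, and the part of Sh2d5 in the Kif17 value was not tested.

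Inpp5e and Kif3c also share exonic bases with genes of the other strand. Inpp5e shares 874 with Pmpca, which encodes a subunit of the mitochondrial processing peptidase and was at 96.7 and 92.1 CPM in control and at 137 and 156 CPM in MOF cKO (log2 fold change 0.63, adjusted p = 0.00488, called higher). Kif3c shares 2617 with the antisense transcript 1110002L01Rik, which was at 12.8 and 12.6 CPM in control and at 13.3 and 15.5 CPM in MOF cKO (adjusted p = 0.467). The library kit marks strand, but the strand setting of the counting was not given in the sources used here, so reads of these pairs may have been exchanged or set aside as ambiguous. Between 0.950% and 1.31% of all reads of a library were set aside as ambiguous. Arl3 starts 167 bases from Sfxn2, a mitochondrial carrier gene of the other strand, which was at 39.6 and 28.4 CPM in control and at 30.5 and 31.7 CPM in MOF cKO and overlapped as Arl3 did.

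**Figure D4:**
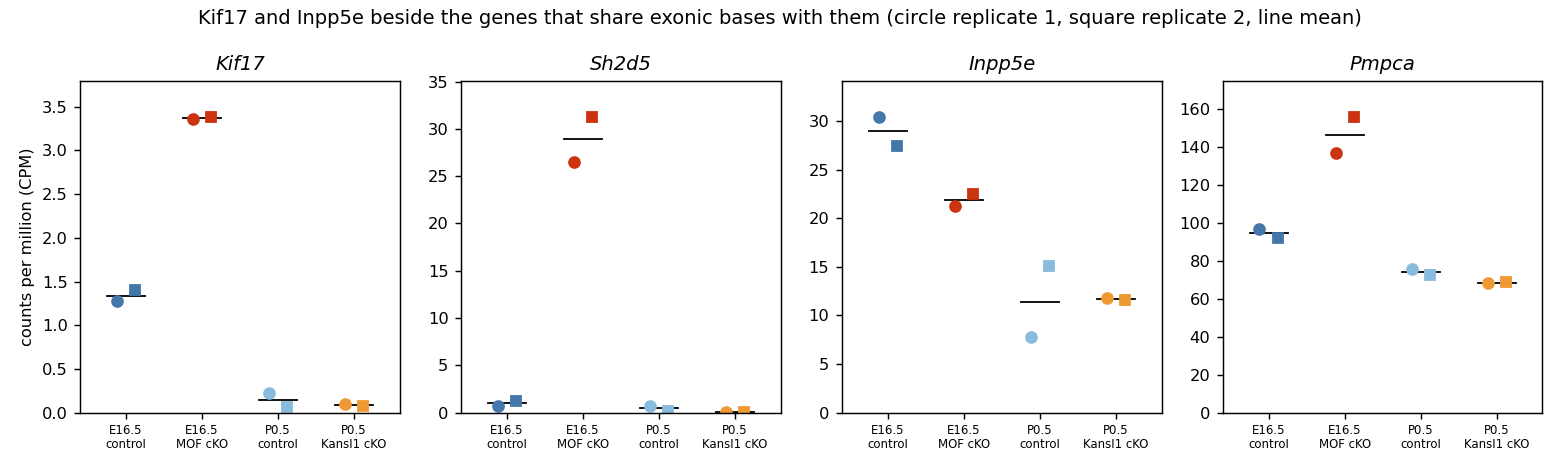
CPM per library of Kif17 and Inpp5e, each beside the gene that shares exonic bases with it (Sh2d5, same strand; Pmpca, other strand), by group (circle, replicate 1; square, replicate 2; line, mean). Kif17 and Sh2d5 are both highest in the 2 MOF cKO libraries, and Inpp5e is lower there while Pmpca is higher.

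The genes that work with the motor and with the GTPases were followed as lists, chosen by function but with earlier results of these data known. Their counts describe the lists and are not independent support. Over all genes tested in MOF cKO, 9.59% were called lower and 10.0% higher. How many list genes were called changed with the settings, as given at the end. The cargo of kinesin-2, the intraflagellar transport B complex, had 17 genes tested in MOF cKO, of which 14 were called lower and 0 higher (median log2 fold change -1.24). Ift57 fell from 11.2 to 0.937 CPM (log2 fold change -3.58, adjusted p = 0.000677) and Ift80 from 27.3 to 4.38 CPM (log2 fold change -2.64, adjusted p = 0.000264). Ttc26, also known as Ift56, fell from 8.42 to 0.476 CPM (log2 fold change -4.12, adjusted p = 0.000632). Ttc30b went from 64 and 59 counts in the controls to 2 and 1, a ratio of summed counts of 30.6 with an exact 95% counting interval of 10.2 to 150. Its MOF cKO counts lie under the floor of 3 counts per library, so the size of this ratio is uncertain. Its reads may be shared with its near-copies Ttc30a1 and Ttc30a2. Ttc30a1 had a log2 fold change of -0.80 and was not called (adjusted p = 0.17, edgeR). Dynein-2, the motor of the way back, had 5 genes tested (median -1.25) and 2 called lower, its light intermediate chain Dync2li1 (from 13.7 to 0.701 CPM, adjusted p = 0.00100) and its intermediate chain Wdr34 (from 32.1 to 14.3 CPM, adjusted p = 0.00197).

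Of 10 partners of ARL3 and INPP5E tested, 7 were called lower and 0 higher, with a median log2 fold change of -1.05. The number called lower changed with the settings, as given at the end, and the share over all genes tested was 9.59%. Of Arl3 and Inpp5e themselves 0 were called by edgeR or by DESeq2. Inpp5e alone had an unadjusted p under 0.05, as had 6820 of the 13956 genes tested. Ccdc104, which encodes a binder of active ARL3, fell from 19.1 to 2.66 CPM (log2 fold change -2.84, SE 0.228, adjusted p = 0.000402). Pde6d, the carrier of prenylated cargo such as INPP5E, fell from 15.0 to 3.53 CPM (log2 fold change -2.08, adjusted p = 0.00304). Rpgr, a partner of that carrier, fell by 1.85 on the log2 scale (adjusted p = 0.00161), and Cep164, a distal appendage protein of the centriole, fell from 96.6 to 40.1 CPM (log2 fold change -1.27, SE 0.120, adjusted p = 0.000602). The difference in frequency between the partners and the 2 GTPase cycle genes was not tested.

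The sequence families of the members were listed as well. Their counts stand beside the shares over all genes tested, 9.59% called lower and 10.0% higher. Of 13 transport kinesins outside kinesin-2, 0 were called by edgeR, while DESeq2 called 1 lower and 1 higher, and the median log2 fold change was -0.05. An unadjusted p under 0.05 was reached by 3 of them and by 6820 of the 13956 genes tested. Kif1a had 3.55 CPM in the controls against 9.50 CPM in MOF cKO (adjusted p = 0.0200), and Kifc2 had 10.5 against 5.05 CPM (adjusted p = 0.0231). Of 13 mitotic kinesins, Kif20b alone was called (log2 fold change -0.68, adjusted p = 0.00790), and the median was -0.28. Of 5 other ciliary kinesins tested (median -0.62), Kif7, a regulator of Hedgehog signalling at the cilium tip, was called, falling from 37.0 to 8.30 CPM (log2 fold change -2.15, adjusted p = 0.00191). Of 22 other Arf and Arl GTPases, 3 were called lower and 2 higher, with a median of 0.00. These counts are close to the shares over all genes and are not read as a result about this family. Arl6, which recruits the BBSome to membranes, fell from 8.96 to 1.05 CPM (log2 fold change -3.10, adjusted p = 0.00112), and Arl15 and Arl2, the latter also a partner listed above, fell by 1.46 and 0.90 on the log2 scale. The 2 higher ones encode lysosomal GTPases: Arl8a rose from 54.2 to 99.8 CPM (adjusted p = 0.00279), and Arl8b, named after its value was seen, from 73.6 to 126 CPM (adjusted p = 0.00190). Of 10 other inositol polyphosphate 5-phosphatases, Inpp5k, Inpp5f and Ocrl were called lower, with log2 fold changes of -1.30, -1.17 and -0.82, and 0 were called higher (median of the list -0.56).

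**Figure D5:**
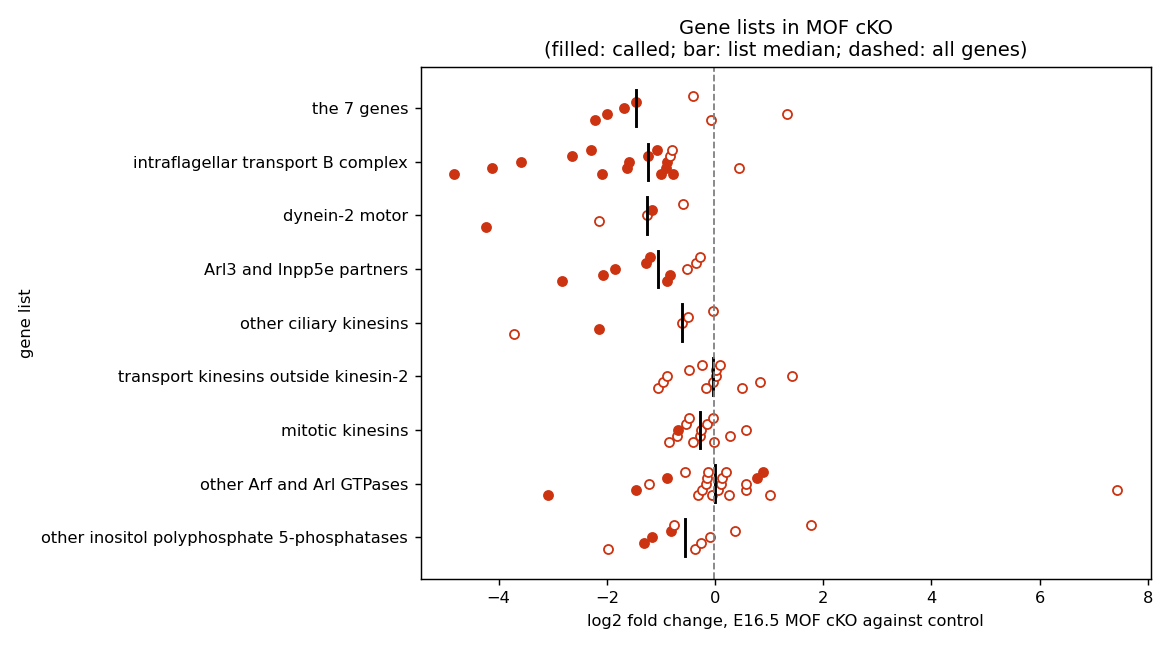
Log2 fold change in MOF cKO of each gene tested (points; filled, called) in the 7 genes and in 8 gene lists, with a bar at the list median and a dashed line at the median of all genes (-0.02). Most filled points on the left belong to the ciliary lists, the transport kinesins have none, and the far right point is Arl11, a gene with 0 counts in both controls whose fitted value depends on the prior count.

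Markers of other cells, of suprabasal keratinocytes and of hair follicle epithelium also differed in value in MOF cKO. The 12 macrophage markers were all higher in MOF cKO, 8 of them called, with a summed level of 21.9 to 46.9 CPM in control and 112 to 142 CPM in MOF cKO. The 5 suprabasal keratinocyte markers were all higher, 4 of them called, at 3120 to 3860 CPM in control and 8650 to 9600 CPM in MOF cKO. The 7 fibroblast markers summed to 917 to 1550 CPM in control and 1540 to 2150 CPM in MOF cKO, with 6 higher and 0 called. Of 6 endothelium markers 5 were higher and 1 lower, with 1 called higher. The 6 melanocyte markers were all higher, with 0 called. The sums of both lists overlapped between the groups. None of these markers was at 0 in both libraries of a group. Of 6 hair follicle epithelium markers 4 were lower and 2 higher in value, with 3 called lower and 0 higher. Those called were Shh (from 62.3 to 10.4 CPM), Lhx2 (from 131.8 to 14.5 CPM) and Edar (from 187.7 to 82.35 CPM). The sum of the 6, 1930 to 2770 CPM in control and 2490 to 3470 CPM in MOF cKO, overlapped. Most of that sum was Krt17 (1882 CPM in control, 2788 CPM in MOF cKO, not called), which the study reads as a mark of stress response cells in MOF cKO. The 3 multiciliated cell markers listed summed to at most 2.41 CPM in any library. The part of other cells in the member values was not tested.

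In Kansl1 cKO epidermis no member was called, in either direction, among 6 tested. By edgeR's quasi-likelihood test 0 of 13031 genes were called, or 0% lower and 0% higher, while 2045 had an unadjusted p under 0.05 and DESeq2 called 55 lower and 35 higher. Kifap3 was the 1 member with an unadjusted p under 0.05. It was at 20.3 and 21.7 CPM in P0.5 control and at 16.2 and 14.3 CPM in Kansl1 cKO (log2 fold change -0.46, 95% confidence interval -0.89 to -0.02, adjusted p = 0.304). Kif3a was at 36.2 and 31.6 CPM in control and at 27.5 and 27.2 CPM in Kansl1 cKO (log2 fold change -0.31, 95% confidence interval -0.70 to 0.09, adjusted p = 0.422). Both genes were lower in both Kansl1 cKO libraries than in both controls. Groups of 2 libraries with no difference would separate, in either direction, with a probability of 0.333, and the share of all genes that did so was not counted. Kif3b overlapped, at 18.5 and 20.7 CPM in control and at 21.5 and 19.3 CPM in Kansl1 cKO (log2 fold change 0.06, 95% confidence interval -0.37 to 0.49). Kif3c varied between libraries of a group, at 7.79 and 15.4 CPM in control and at 17.4 and 12.2 CPM in Kansl1 cKO, and its interval ran from -0.49 to 1.16. Arl3 was higher in both Kansl1 cKO libraries, at 14.5 and 12.1 CPM against 9.63 and 10.9 CPM (log2 fold change 0.37, adjusted p = 0.454). Inpp5e overlapped, at 7.79 and 15.1 CPM in control and at 11.8 and 11.6 CPM in Kansl1 cKO. Its interval ran from -0.74 to 0.77. This interval is not adjusted for the number of genes tested and is not the limit of what could be called. Larger changes also went uncalled, such as that of the fibroblast marker Pdgfra at -2.53 on the log2 scale (adjusted p = 0.197, edgeR). The smallest adjusted p of all genes tested was 0.11. Kif17 did not pass the filter on low counts (filterByExpr) and was not tested. Its counts were 2 and 1 in each P0.5 group, and no fold is given, since these lie under the floor of 3 counts per library.

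No gene of the companion lists was called in Kansl1 cKO by edgeR or by DESeq2. At an unadjusted p under 0.05 stood 5 of 17 intraflagellar transport B genes, 1 of 5 dynein-2 genes, 2 of 10 partners of ARL3 and INPP5E and 5 of 13 mitotic kinesins. Over all genes tested, 2045 of 13031 stood at that p. The 13 mitotic kinesins all had a higher value in Kansl1 cKO (median log2 fold change 0.51, against 0.01 for all genes tested), as in Kif18b with 17.7 CPM in the controls and 29.4 CPM in Kansl1 cKO (adjusted p = 0.263) and in Kif11, the spindle motor, with 67.7 and 109 CPM (adjusted p = 0.275). Markers of other cells also differed in value between these groups, with 0 of them called by edgeR. The 6 melanocyte markers were all higher in Kansl1 cKO, each with an unadjusted p under 0.05, at a summed level of 464 to 517 CPM in control and 994 to 1120 CPM in Kansl1 cKO (median log2 fold change 1.13). Of 12 macrophage markers 10 were higher, 5 of the 12 with an unadjusted p under 0.05, at 189 to 223 against 286 to 311 CPM. The 4 T cell markers were all higher, 3 of them at that p, at 5.56 to 7.10 against 12.6 to 13.2 CPM. Of 7 fibroblast markers 6 were lower, 5 of the 7 at that p, at 1090 to 1750 CPM in control and 739 to 926 CPM in Kansl1 cKO (median log2 fold change -1.76). None of these markers was at 0 in both libraries of a P0.5 group, and their part in the values of the mitotic kinesins and the members was not tested. Traf3ip1 and Ttc30a1 of the intraflagellar transport B complex had log2 fold changes of -1.37 and -0.89, and Tctex1d2 and Dync2li1 of dynein-2 had -0.84 and 0.27. Among the partners, Unc119 and Tulp3 stood at 0.73 and 0.49. The median was -0.27 for the transport B genes, 0.01 for dynein-2 and 0.12 for the partners. Of 11 transport kinesins tested 2 had an unadjusted p under 0.05, Kif21a at 0.80 and Kif1a at -1.16 on the log2 scale. Of the other ciliary kinesins, the other Arf and Arl GTPases and the other 5-phosphatases, 0 did, and the genes with the smallest p were Kif19a and Kif9 (1.41 and -0.77), Arl5b and Arf2 (0.63 and -0.37), and Inpp5k and Inppl1 (-0.30 and 0.37).

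Whether the effect in MOF cKO differed from that in Kansl1 cKO was tested as the difference of the 2 effects, in 1 fit over all 8 libraries. Stage, cell isolation, sequencing run, depth and the deleted gene differ together between the experiments and cannot be told apart. Called lower were 3 members: Kif3a with a difference of -1.41 on the log2 scale (SE 0.246, adjusted p = 0.00943 from edgeR), Kif3b with -1.54 (SE 0.239, adjusted p = 0.00638) and Kifap3 with -1.80 (SE 0.267, adjusted p = 0.00553). Among the 14565 genes tested 1.17% were called lower in this contrast. Kif3c had the largest difference, -2.36 with a 95% confidence interval from -3.34 to -1.37, and missed the threshold (adjusted p = 0.0117). Kif17, Arl3 and Inpp5e were not called, with adjusted p between 0.255 and 0.459. DESeq2 called all 4 heterotrimer genes. With the replicate number as a block the 3 calls were lost, with differences of -1.41 for Kif3a (adjusted p = 0.0180), -1.54 for Kif3b (0.0138) and -1.81 for Kifap3 (0.0127). The number called fell to 0 without E16.5 control replicate 1 or 2, without MOF cKO replicate 1 or 2, without P0.5 control replicate 1 or without Kansl1 cKO replicate 1, where adjusted p for the 4 genes lay between 0.0113 and 0.0538 and each difference was -1.13 or lower. Without P0.5 control replicate 2 or Kansl1 cKO replicate 2 it stayed 3, with Kif3c called (adjusted p = 0.00494 and 0.00919) and Kif3a not (0.0188 and 0.0162).

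Between the controls, Arl3 and Inpp5e were called lower at P0.5 than at E16.5. Stage, isolation and sequencing run cannot be told apart in this comparison, and whole P0.5 epidermis held more suprabasal RNA than the sorted cells, with summed suprabasal markers of 39900 to 73000 CPM against 3120 to 3860 CPM. On the scale of 1 fit over all libraries, Arl3 was 2.35-fold lower at P0.5 (log2 fold change -1.23, SE 0.196, adjusted p = 0.000644) and Inpp5e 2.14-fold lower (log2 fold change -1.10, SE 0.269, adjusted p = 0.00683). Kif17 was also called, with 78 counts over both E16.5 controls and 3 over both P0.5 controls, a ratio of 9.26 with an exact 95% counting interval of 3.05 to 45.9. Since Kif17 did not pass the filter on low counts among the P0.5 libraries alone, it entered this fit through its E16.5 counts. Each of its P0.5 counts lies under the floor of 3 counts per library, and its call is not taken as support for a difference. With Kif17 included, 3 members were called lower, where 20.6% of all genes were, and the median of all genes was -0.13 on the log2 scale. Kif3a had a log2 fold change of 0.24 with a 95% confidence interval from -0.15 to 0.62, which turned to -0.11 with library size alone, and Kif3b, Kif3c and Kifap3 were lower in value and not called (adjusted p between 0.0196 and 0.0262). The call of Inpp5e was lost without E16.5 control replicate 1 (adjusted p = 0.0371), E16.5 control replicate 2 (0.0288), MOF cKO replicate 1 (0.0114), MOF cKO replicate 2 (0.0166) or P0.5 control replicate 1 (0.0203), and that of Kif17 without any 1 library other than MOF cKO replicate 1 (adjusted p between 0.0102 and 0.061). The call of Arl3 was kept without any 1 library.

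The genes whose pattern was most like that of Kif3a over the 8 libraries, by Pearson correlation of log2 CPM among 14565 genes, were Ano9 (r = 0.991), Plekhm3 (0.990) and Wdr5b (0.990). Its own partners Kifap3 and Kif3b stood at 0.885 and 0.863, and Kif3c at 0.692. Inpp5e, Arl3 and Kif17 stood at -0.359, -0.559 and -0.763. The 8 points come from 4 groups that share stage, isolation and depth, so these values describe the libraries.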

How the data were processed

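RNA-seq counts of 8 libraries, 2 per group, were analysed. The authors counted reads per gene with HTSeq on mm10 and deposited the raw counts without normalization. The article names HISAT2 as aligner and the submitters' processing notes name TopHat2. Entries that name no gene (21.1% to 26.0% of reads) were left out. The main test was the quasi-likelihood test of edgeR 4.0.16 (R 4.3.3), run after filterByExpr and TMM scaling, with Benjamini-Hochberg adjustment over all genes tested. Each experiment was fitted alone, and 1 fit over 8 libraries gave the difference of effects and the comparison of controls. Standard errors were the log2 fold change divided by the root of F. CPM used the scaling of each experiment, and CPM per kilobase that of all libraries with GENCODE M21 exons, with which 92.8% of symbols were matched. The scripts were tested on simulated data.

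The members and lists were chosen with earlier results of these data known. Of each list were named up to 4 called genes with the largest fold change and a mean of at least 1 CPM, or, where none was called, up to 2 with the smallest p; the 3 genes most correlated with Kif3a were also named. Alternatives were DESeq2 1.42.0, RLE and upper-quartile factors, library size alone, 2 other filters on low counts, an adjusted p of 0.05, a test against the fold (glmTreat), a replicate block, 1 fit over all libraries, each library left out, and the longest transcript as length. A left-out library leaves a lone library, assumed to vary like the other groups. A crossed pairing was added after seeing the data. The 2 libraries per group limit the precision, and counting intervals cover counting error only. No protein sequences were used. The results of 1 member and 1 list gene are not reported here and are left out of the counts over members and lists.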

Additional observations from a re-analysis of the deposited data

How the results depend on the processing

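In MOF cKO, 4 members were called lower under 13 of 14 alternatives and 5, with Inpp5e, with library size alone, and 0 were called higher under all 14. In Kansl1 cKO, 0 members were called under all 15. The number called lower in the difference of effects, 3, lay between 0 and 3 with 1 library left out and fell to 0 with the replicate block. That in the controls, 3, lay between 1 and 3 with 1 library left out and rose to 6 with library size alone, where the median of all genes moved from -0.13 to -0.46 on the log2 scale and the share of lower genes among calls from 51.2% to 67.1%. With 2 libraries per group, a change that misses the threshold cannot be taken as absent, and the P0.5 libraries, the shallowest at 9108709 counts, limit it most.

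Of all genes in MOF cKO, 1338 called lower and 1395 higher became 2743 and 769 with library size alone and 426 and 502 with the test against the fold; those lower became 2197 when all genes with a count were kept, 2296 at an adjusted p of 0.05 and 2263 with the replicate block, and without 1 library the numbers were 1236 to 1332 and 1225 to 1399. In Kansl1 cKO, 0 and 0 became 55 and 35 with DESeq2 and 117 and 73 when all genes with a count were kept, 1 was called lower with library size alone, and without 1 library the numbers were 4 to 197 and 0 to 76. For the difference of effects, 170 and 256 became 492 and 940 with DESeq2, 539 and 1112 when all genes with a count were kept, 985 and 1026 at an adjusted p of 0.05 and 40 and 91 with the replicate block, 245 and 219 with library size alone (52.8% lower against 39.9%), and 12 to 135 and 61 to 288 without 1 library. For the controls, 2997 and 2854 became 1543 to 2953 and 1977 to 3150 without 1 library. The cause of these shifts was not tested.

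The study describes pairs of samples with littermate controls, but neither it nor the labels say which library numbers belong to a pair. Deviations of same-numbered libraries correlated at 0.206 over genes at E16.5 and at -0.202 at P0.5. The replicate block left the member calls of MOF cKO and Kansl1 cKO at 4 and 0 and lost the 3 calls of the difference of effects and that of Kif17 in the controls. Crossing the pairs at P0.5, chosen after seeing the data, gave 1 gene called lower and 0 higher.

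Signs turned only for members that were not called. In Kansl1 cKO, the log2 fold change of Inpp5e, 0.02, became -0.00048 with RLE factors, -0.0405 with upper-quartile factors, -0.0553 with library size alone and -0.0242 with at least 1 CPM in 2 libraries. With 1 library left out it ranged from -0.361 (without P0.5 control replicate 1) to 0.557, that of Kif3b from -0.0593 (without Kansl1 cKO replicate 1) to 0.133 and that of Kif3c from -0.0496 (without P0.5 control replicate 1) to 0.899. Arl3 in MOF cKO ranged from -0.237 to 0.0505 (without MOF cKO replicate 1). Kif3a between the controls was at -0.11 with library size alone.

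With the longest transcript as length, levels in E16.5 control were 9.74 for Kif3a, 3.73 for Kif3c, 0.358 for Kif17 and 23.5 CPM per kilobase for Arl3. Among the lists in MOF cKO, intraflagellar transport B genes called lower ranged from 6 to 14, partners of ARL3 and INPP5E from 4 to 9, dynein-2 genes from 1 to 5, mitotic kinesins from 0 to 6, other Arf and Arl GTPases from 2 to 5, other 5-phosphatases from 0 to 4, other ciliary kinesins from 1 to 2 and transport kinesins from 0 to 2.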
